A study of Mus musculus with 12 samples.

Results

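Sox7 induction for 12 h was examined in cultures of mouse haemogenic endothelium, the part of the vessel lining that gives rise to blood. The comparison sets 2 libraries of cells kept with doxycycline (Dox) against 2 libraries of cells kept without it, 4 of the 12 libraries of the series. All 41128 genes of the count table belong to the comparison, and 15347 of them held enough reads to be tested. Every direction below is Dox over no Dox.

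All cells came from a single embryonic stem cell line, iSox7, a derivative of Ainv18 in which Dox switches on Sox7. Embryoid bodies of this line were sorted for FLK1 at day 3.5, and the FLK1+ cells grew for 48 h in liquid blast medium containing VEGF and IL6. The untreated group then had a further 12 h without Dox, and the treated group had 12 h with 1 µg/ml Dox. Groups of the same design at 6 h and 24 h, each with its own untreated libraries, are used here only for comparison. No sort for endothelial or blood markers after the culture is described, and the libraries therefore measure the whole culture. None of the samples used here had Dox without the inducible Sox7, so effects of Dox itself and of Sox7 cannot be told apart.

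SOX7, SOX17 and SOX18 form the SOXF group of transcription factors, which bind DNA through an HMG box and act in the development of arteries, veins and lymphatic vessels. SOX7 is present in haemogenic endothelium and declines as blood cells form. RUNX1 is the factor required for endothelium to produce blood, and Gfi1 and Gfi1b are targets of RUNX1 that shut down endothelial genes. The series asks what induced SOX7 does to gene expression while this transition is under way.

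Sox7 (ENSMUSG00000063060, GRCm38 chromosome 14, 63943674 to 63950732, plus strand) was checked first. It stood at 55.6 and 68.8 CPM (read counts scaled to library size) in the untreated libraries and at 379 and 376 CPM in the Dox libraries. The groups were far apart, and Dox replicates 1 and 2 were nearly equal. The log2 fold change was 2.58 ± 0.07 (standard error, SE), with an adjusted p of 2.18e-22 in the quasi-likelihood test of edgeR (Benjamini-Hochberg adjustment over all tested genes), which is the test behind every adjusted p below unless another is named. The effect was larger than at 6 h, where it was 2.01, and the difference of 0.57 passed the test (adjusted p = 0.00117). It did not differ detectably from the 2.68 at 24 h (difference 0.10 ± 0.09, adjusted p = 0.784). Counts on the Sox7 gene do not separate transcripts of the inducible copy from those of the endogenous gene.

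The other SOXF genes did not pass the test. Sox17 read 63.2 and 60.1 CPM without Dox against 56.0 and 52.1 CPM with it, and Sox18 read 113 and 126 against 110 and 116 CPM. Their log2 fold changes were -0.18 ± 0.07 (adjusted p = 0.130) and -0.09 ± 0.06 (adjusted p = 0.413). Runx1 read 173 and 166 CPM in the untreated libraries and 160 and 152 CPM with Dox (-0.11 ± 0.06, adjusted p = 0.270); with the correction for gene length described below it passed, at -0.19 (adjusted p = 0.0308). Gfi1 was at 6.69 and 6.96 CPM against 8.05 and 9.30 CPM (0.32 ± 0.16, adjusted p = 0.248). Gfi1b, at 17.8 and 16.6 CPM against 18.4 and 12.8 CPM, overlapped between the groups.

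Dox changed 1038 genes at 12 h, 6.76% of those tested, at an adjusted p under 0.05. Of these, 500 were higher (3.26%) and 538 lower (3.51%). In 497 of the higher and 534 of the lower genes both Dox libraries lay beyond both untreated ones. Over all tested genes the Dox libraries lay above both untreated libraries for 3554 and below both for 3948, so a lack of overlap alone says little. Most changes were small. Only 251 called genes differed by at least 1.5-fold (112 higher, 139 lower), 111 by at least 2-fold (46 and 65) and 22 by at least 4-fold (14 and 8). The median log2 fold change of all tested genes was -0.01, and the smallest called change was 0.15. The share called rose with expression, from 2.50% in the lowest of 4 equal groups by level to 12.1% in the highest.

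These counts depended on single libraries. Leaving out untreated replicate 1, Dox replicate 1, untreated replicate 2 and Dox replicate 2 in turn left 619, 423, 659 and 754 called genes, with the lone library of the reduced group assumed to vary like the other groups. Without any 1 of the 4 libraries, 254 of the called genes kept their call (149 higher, 105 lower). Depth was 13846438 and 33028607 counts in untreated replicates 1 and 2 and 35250074 and 15429846 counts in Dox replicates 1 and 2, within the 13485804 to 35250074 of the series, and mitochondrial genes took 1.47% to 1.71% of the counts of these 4 libraries. The labels do not call the replicates separate cultures, so a p-value here reflects only how far these samples spread, and that spread may be technical.

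**Figure D1:**
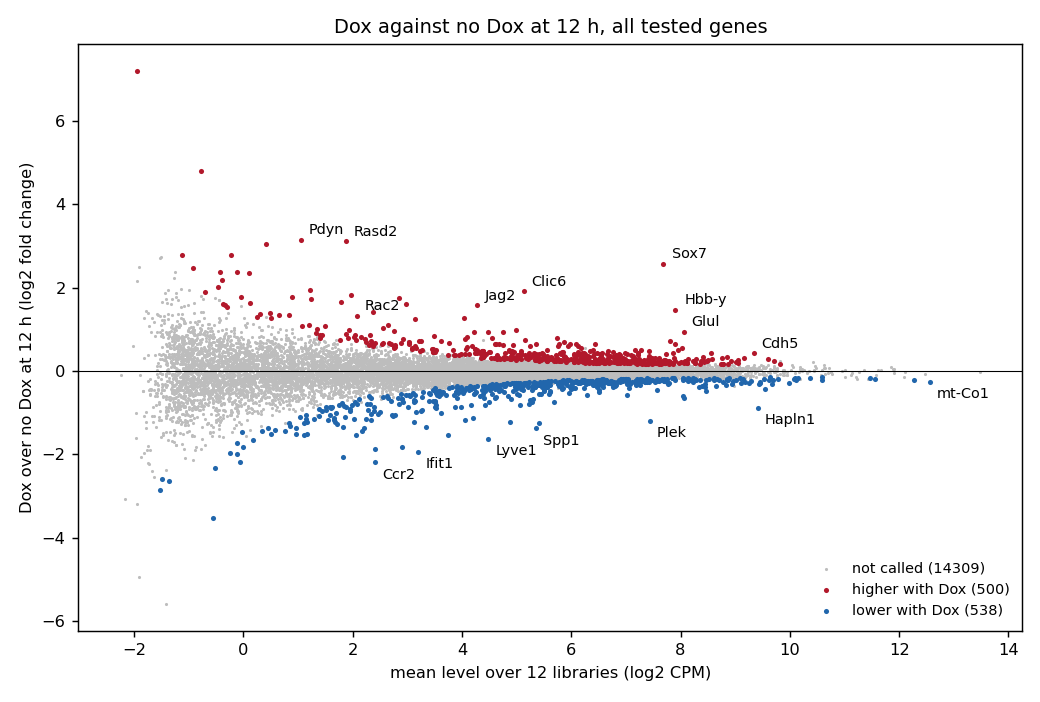
Each point is 1 of the 15347 tested genes, with its mean level over the 12 libraries on the x axis (log2 CPM) and its fitted change with Dox at 12 h on the y axis (log2 fold change). Red marks the 500 genes called higher, blue the 538 called lower and gray the rest; Sox7 stands far above all genes of like level, while most called genes of high level differ little from 0.

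The small changes moved with gene length, taken here as the length the authors' RPKM values imply. Called higher genes had a median length of 6236 bases and called lower genes of 3273 bases, against 3793 bases over all tested genes. Among called genes under 1.5-fold the medians were 6940 and 3187 bases. Among those of at least 1.5-fold they were closer, 4160 and 3487 bases. Of the 5113 shortest tested genes 49 were higher and 220 lower, and of the 5113 longest 319 were higher and 128 lower. Across 12509 genes with a mean of at least 1 log2 CPM, the Spearman correlation of the fitted change with length was 0.330 at 12 h, 0.0898 at 6 h and 0.140 at 24 h. These genes share the same 4 libraries at 12 h and are not independent points.

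The relation also differed between single libraries. It was 0.378 for Dox replicate 1 over untreated replicate 1 and 0.150 for Dox replicate 2 over untreated replicate 2. Replicates of the same group also differed by length, with 0.197 for Dox replicate 1 over 2 and -0.141 for untreated replicate 1 over 2. With a smooth curve on length taken out of each library, an alternative chosen after seeing the data, 908 genes were called (429 higher, 479 lower), with median lengths of 4997 and 4671 bases. Of the original calls 782 were kept (75.3%): 233 of 251 at 1.5-fold or more (92.8%) and 549 of 787 below it (69.8%). Calls named below that were lost with this correction are given as such.

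**Figure D2:**
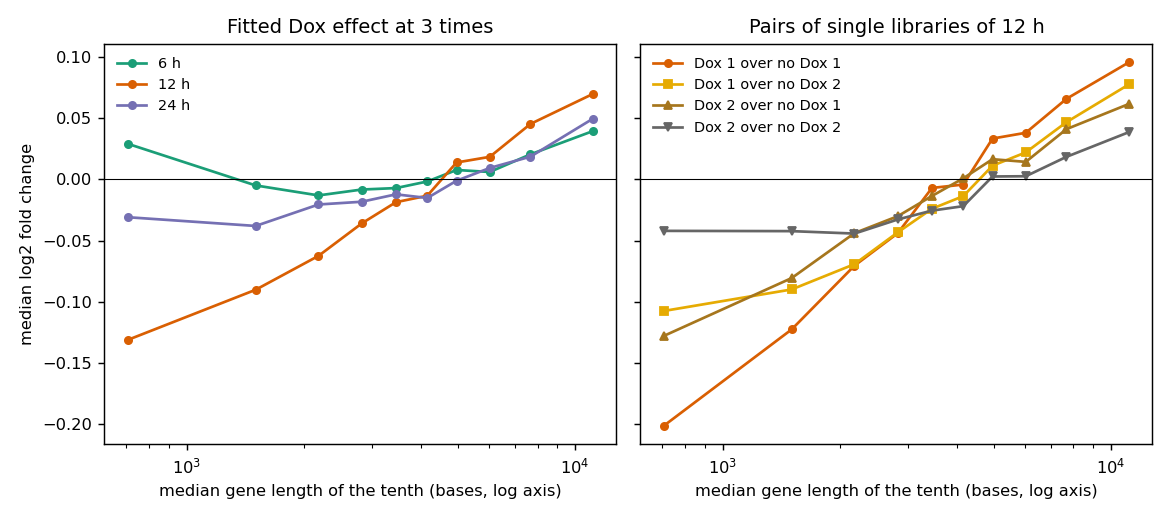
Tested genes of at least 1 log2 CPM fall into 10 groups by gene length (x axis, median length in bases, log scale), and the y axis gives the median log2 fold change with Dox in each. On the left the fitted effect at 12 h climbs from the shortest to the longest group more steeply than at 6 h or 24 h; on the right the 4 pairs of single 12 h libraries all climb, most for replicate 1 over replicate 1 and least for replicate 2 over replicate 2.

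More endothelial genes rose than fell. Cdh5 encodes VE-cadherin, the adhesion molecule of endothelial junctions, and stood at 529 and 581 CPM in the untreated libraries and at 723 and 775 CPM with Dox. Both Dox libraries exceeded both untreated ones (0.43 ± 0.05, adjusted p = 2.38e-06). Ets1, an ETS transcription factor, rose from 496 and 555 to 660 and 654 CPM (0.32 ± 0.05). Cd93, a surface lectin of endothelium, rose by 0.34 ± 0.05, and Vwf, the von Willebrand factor stored in endothelial granules, rose by 0.71 ± 0.16. Cd34, a marker of both endothelium and blood progenitors, fell from 382 and 408 to 312 and 305 CPM (-0.36 ± 0.05). Of 30 tested genes of endothelial surface, junctions and factors, 10 rose and 3 fell, and the list's median log2 fold change was 0.11. Pecam1 (0.16 ± 0.05, adjusted p = 0.0637) and Kdr (0.10 ± 0.05, adjusted p = 0.329) did not pass.

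The number of endothelial genes called higher was 5, 5, 9 and 6 when untreated replicate 1, Dox replicate 1, untreated replicate 2 and Dox replicate 2 were left out in turn. The call of Vwf was lost without Dox replicate 1 or untreated replicate 2 (adjusted p up to 0.38). The defining markers of endothelium (Cdh5, Pecam1, Kdr, Tek, Esam, Icam2, Cldn5 and Egfl7) were present in every library. Their sum was 1853 and 2040 CPM in the untreated libraries and 2236 and 2350 CPM with Dox. Of the 8, 5 were called higher and 0 lower, and Cldn5 lay below 0 (-0.14 ± 0.08, adjusted p = 0.392). Cdh5 kept its call in each of the fits without 1 library, while Tek, Esam, Icam2 and Egfl7 lost theirs in some. In bulk RNA more cells of a type and more RNA per cell cannot be told apart.

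Arterial and Notch genes moved only upward among those called: 10 of 24 tested rose and 0 fell, and the list's median was 0.26. Notch receptors on a cell are activated by ligands of the Delta and Jagged families on its neighbours, and the pathway sets arterial identity. Jag2, a ligand, had the largest rise after Bmx. It stood at 9.97 and 9.63 CPM in the untreated libraries and at 30.4 and 27.7 CPM with Dox, a clear gap between the groups (1.58 ± 0.12, adjusted p = 1.005e-10; chromosome 12, 112908590 to 112929495). The ligand Dll4 rose less, from 62.7 and 59.4 to 74.8 and 72.5 CPM (0.28 ± 0.07). Jag1 (0.02, adjusted p = 0.92) and Dll1 (0.98, adjusted p = 0.16) did not pass.

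Among the receptors, Notch4, which is largely endothelial, rose from 53.6 and 57.4 to 83.5 and 91.8 CPM (0.65 ± 0.08, adjusted p = 1.2e-06). Notch1 rose by 0.24 ± 0.05, from 202 and 221 to 245 and 256 CPM, and Notch2 (0.13, adjusted p = 0.17) did not pass. Of the HEY and HES genes, which Notch induces, Hey1 rose from 36.7 and 40.6 to 58.7 and 63.8 CPM (0.65 ± 0.09). Hey2, Heyl and Hes1 did not pass (adjusted p = 0.66, 0.51 and 0.67). The arterial connexins, which form gap junctions, both rose: Gja4 (connexin 37) from 182 and 207 to 298 and 313 CPM, and Gja5 (connexin 40) from 41.8 and 51.3 to 71.7 and 77.0 CPM. Each changed by 0.65 on the log2 scale, with an SE of 0.06 and 0.08. The arterial ephrin Efnb2 rose by 0.40 ± 0.05 and the secreted semaphorin Sema3g by 0.43 ± 0.08. Bmx, a kinase of arterial endothelium, rose from 0.214 and 0.424 to 1.51 and 0.770 CPM (1.77 ± 0.48).

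Calls of 3 of these 10 genes depended on 1 library. Dll4 lost its call without Dox replicate 1 or untreated replicate 2 (adjusted p up to 0.14). Notch1 lost it without untreated replicate 1 or Dox replicate 2 (up to 0.097) and with the length correction (0.098). Bmx lost it without untreated replicate 1, Dox replicate 1 or untreated replicate 2 (up to 0.51). The list still held 8 to 10 called genes in each of the 4 fits, all higher.

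**Figure D3:**
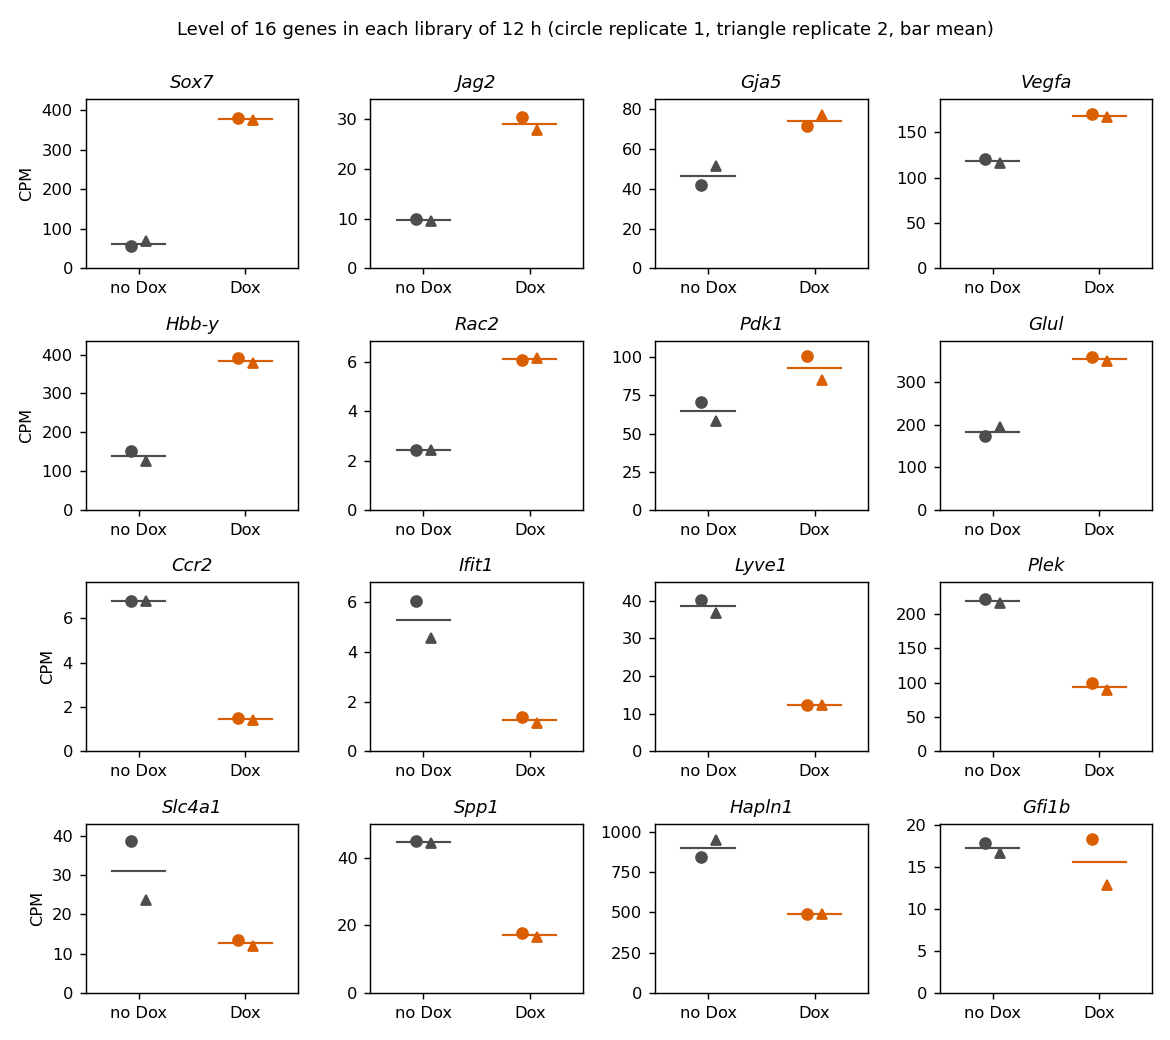
CPM of 16 genes in the 4 libraries of 12 h, each panel on its own linear axis from 0; circles are replicate 1, triangles replicate 2 and bars the mean of the 2 libraries. The groups are apart in 15 panels, with Sox7, Jag2 and Hbb-y among the genes higher with Dox and Lyve1, Plek and Spp1 among those lower, while the Gfi1b libraries overlap. Those 15 genes were all called, and the gap adds nothing to the call. It was present in 497 of the 500 genes called higher and 534 of the 538 called lower, and was part of the rule that chose some of these genes.

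Of 15 tested genes of the VEGF and angiopoietin system 6 rose and 0 fell (median 0.18). Both ligands that rose act on receptors of vascular and lymphatic endothelium. Vegfa went from 120 and 116 to 170 and 166 CPM (0.51 ± 0.06, adjusted p = 3.3e-07), and Vegfc from 29.5 and 30.4 to 40.1 and 38.3 CPM (0.39 ± 0.09). Among the receptors and co-receptors, Nrp2 (0.26), Tie1 (0.24), Flt1 (0.19) and Tek (0.18) rose less, and Kdr, Flt4 and Nrp1 did not pass. The count was 3, 4, 6 and 5 without untreated replicate 1, Dox replicate 1, untreated replicate 2 and Dox replicate 2. Vegfc lost its call without Dox replicate 1 (adjusted p = 0.085), Tek (up to 0.32) and Flt1 (up to 0.18) without untreated replicate 1 or Dox replicate 2, and Tie1 without untreated replicate 1 or Dox replicate 1 (up to 0.13). Flt1 also lost it with the length correction (0.175).

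Venous and lymphatic genes were split, with 3 higher and 3 lower of 13 tested. Lyve1, a hyaluronan receptor of lymphatic and early embryonic endothelium, fell most of the called genes in this list. It stood at 40.2 and 36.8 CPM in the untreated libraries and at 12.4 and 12.2 CPM with Dox (-1.64 ± 0.10, adjusted p = 8.14e-13; chromosome 7, 110850607 to 110862953). The 2 libraries of each group were close together and the groups far apart. Aplnr, the apelin receptor, fell from 154 and 171 to 132 and 123 CPM (-0.34 ± 0.06), and Pdpn, podoplanin, by 0.39 ± 0.12. Prox1, the lymphatic master regulator, rose by 0.43 ± 0.11, and the venous receptor Ephb4 by 0.21 ± 0.05. The calls of Pdpn (adjusted p up to 0.63) and Prox1 (up to 0.53) were lost without Dox replicate 1 or untreated replicate 2, and that of Ephb4 without untreated replicate 1, Dox replicate 1 or Dox replicate 2 (up to 0.24). Pdpn also lost its call with the length correction (0.084).

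Axon guidance genes, many of which also steer vessels, showed 6 rises and 4 falls among 38 tested (26.3% called). Sema4d, a semaphorin of blood cells, fell most, from 19.2 and 14.7 to 8.89 and 9.30 CPM (-0.87 ± 0.13). Sema6a rose by 0.34 ± 0.07, and lost its call without untreated replicate 2 (adjusted p = 0.072). The rises numbered 5, 3, 3 and 5, and the falls 3, 2, 1 and 3, without untreated replicate 1, Dox replicate 1, untreated replicate 2 and Dox replicate 2. Among 20 integrin genes, Itgb3, the platelet and endothelial beta subunit, fell by 0.61 ± 0.06, and Itga4, an alpha subunit of blood cells, by 0.54 ± 0.10. Itga1 (0.40 ± 0.07) and Itga7 (0.45 ± 0.07), alpha subunits of collagen and laminin receptors, rose. Itga2, also a collagen receptor subunit, rose by 0.67 ± 0.17, with its call lost without untreated replicate 1, Dox replicate 1 or untreated replicate 2 (up to 0.20).

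**Figure D4:**
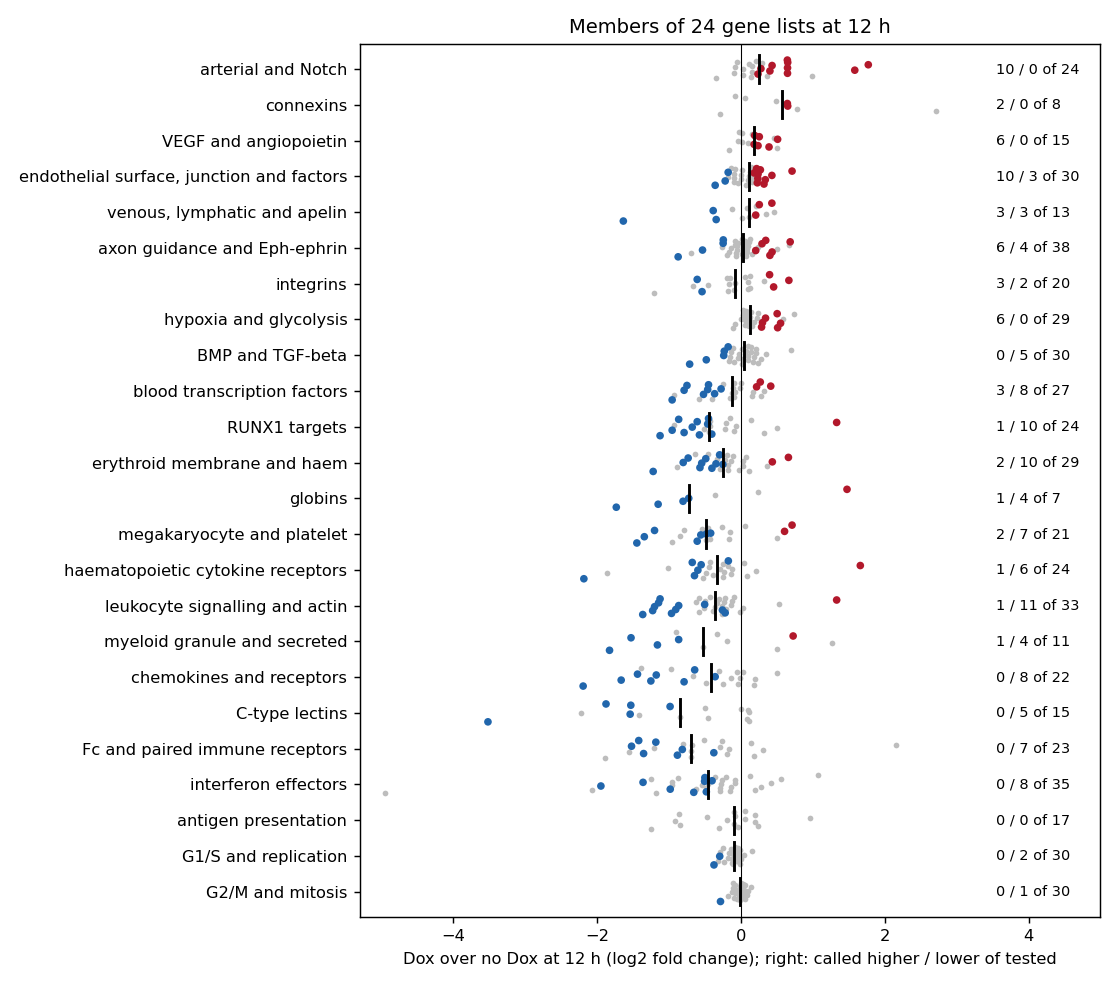
Each point is a tested member of 1 of 24 gene lists, placed by its change with Dox at 12 h (x axis, log2 fold change); red and blue mark members called higher and lower, gray those not called, and the black bar is the median of all tested members. The numbers at the right give called higher / called lower of tested: arterial and Notch genes were called only to the right, and C-type lectins, chemokines, paired immune receptors and interferon effectors only to the left.

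More blood transcription factors fell than rose: 8 of 27 tested fell and 3 rose. Spi1, which encodes PU.1, the factor of myeloid fate, went from 14.5 and 10.3 to 6.48 and 5.71 CPM (-0.96 ± 0.17, adjusted p = 4e-04). Nfe2, a factor of platelet formation, went from 53.3 and 42.7 to 28.7 and 25.5 CPM (-0.79 ± 0.10), and Cebpb, a myeloid and stress factor, from 26.6 and 26.0 to 15.6 and 15.7 CPM (-0.75 ± 0.10). Ikzf1 (-0.46 ± 0.09), Myb (-0.45 ± 0.11), Gata1 (-0.52 ± 0.15), Lyl1 (-0.37 ± 0.08) and Tal1 (-0.28 ± 0.06), all regulators of blood progenitors or red cells, fell less. Mecom, active in blood stem cells and in endothelium, rose from 62.4 and 73.1 to 89.6 and 92.9 CPM (0.41 ± 0.07), as did Lmo2 (0.27 ± 0.07) and Fli1 (0.22 ± 0.06), both shared by endothelium and blood.

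The number of blood factors called lower was 4, 8, 10 and 5, and of those higher 2, 1, 1 and 4, without untreated replicate 1, Dox replicate 1, untreated replicate 2 and Dox replicate 2. Myb (adjusted p up to 0.175), Gata1 (up to 0.55) and Tal1 (up to 0.12) lost their calls without untreated replicate 1 or Dox replicate 2, and Lyl1 without untreated replicate 1 (0.058). Lmo2 lost its call without Dox replicate 1 or untreated replicate 2 (up to 0.41) and Fli1 in each of the 4 fits (up to 0.22).

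Of 24 tested genes listed as RUNX1 targets, 10 fell and 1 rose, and the median was -0.44. Runx1 itself did not pass, as given above. Besides Spi1, Nfe2, Ikzf1, Myb and Itgb3, the falls held Mpo, the myeloperoxidase of myeloid granules, from 23.6 and 20.4 to 12.5 and 11.2 CPM (-0.87 ± 0.12). Sla, an adaptor of antigen receptor signalling, fell by 1.12 ± 0.14, and Csf2rb, the beta chain shared by receptors for IL3, IL5 and GM-CSF, by 0.68 ± 0.09. Alox5ap, of leukotriene synthesis, fell by 0.58 ± 0.13 and the co-repressor Cbfa2t3 by 0.41 ± 0.07. Rac2, a GTPase of blood cells, was the 1 that rose. It read 2.42 CPM in both untreated libraries and 6.06 and 6.16 CPM with Dox (1.33 ± 0.21, adjusted p = 7.36e-05; chromosome 15, 78559169 to 78572783). Between 9 and 12 members were called lower in the 4 fits that left out a library of 12 h, although Myb was lost without untreated replicate 1 or Dox replicate 2 (adjusted p up to 0.175).

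Globin genes went in opposite directions. Hbb-y, the embryonic epsilon-like globin of primitive red cells, stood at 152 and 126 CPM in the untreated libraries and at 390 and 378 CPM with Dox (1.47 ± 0.08, adjusted p = 3.6e-14; chromosome 7, 103851745 to 103853240). The other embryonic globins did not pass. Hbb-bh1 read 1225 and 715 CPM without Dox against 1181 and 1086 CPM with it (0.23 ± 0.13, adjusted p = 0.346). Hba-x read 735 and 449 against 457 and 463 CPM (-0.36 ± 0.11, adjusted p = 0.0542). In both genes the Dox libraries lay between the untreated ones. With the length correction Hbb-bh1 passed (0.37, adjusted p = 0.0472). Of the adult globins, Hba-a1 fell from 47.3 and 31.6 to 21.2 and 23.03 CPM (-0.81 ± 0.12, adjusted p = 4.32e-05). Hbb-bs (-0.73 ± 0.21), Hba-a2 (-1.15 ± 0.34) and Hbq1b (-1.73 ± 0.48) fell as well. Near-identical globin copies can share reads, so the values of single adult alpha and beta genes are uncertain.

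Untreated replicate 1 was above untreated replicate 2 for 7 of 7 tested globins, with a median log2 ratio of 0.58, and for 28 of 29 erythroid membrane and haem genes (0.32). Without untreated replicate 1, Dox replicate 1, untreated replicate 2 and Dox replicate 2, the lower calls numbered 1, 1, 3 and 2 for the globins. Hbb-bs (adjusted p up to 0.48) lost its call without untreated replicate 1, Dox replicate 1 or Dox replicate 2, Hba-a2 (up to 0.41) without untreated replicate 1, Dox replicate 1 or untreated replicate 2, and Hbq1b (up to 0.22) in each of the 4 fits. Hbb-bs and Hba-a2 also lost it with the length correction (0.059 and 0.066). Hbb-y and Hba-a1 kept their calls throughout.

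Of 29 genes of the red cell membrane and haem synthesis, 10 fell and 2 rose (median -0.25). Slc4a1, the band 3 anion exchanger, fell most, from 38.6 and 23.8 to 13.4 and 12.1 CPM (-1.22 ± 0.14, adjusted p = 3.4e-07). Gypc, a membrane protein of red cells, fell by 0.40 ± 0.07, and Tfrc, the transferrin receptor, by 0.25 ± 0.06. Aqp1, a water channel of red cells and endothelium, rose from 41.2 and 45.1 to 68.3 and 69.0 CPM (0.66 ± 0.07). Alas2, the first enzyme of erythroid haem synthesis, rose from 39.8 and 26.8 to 46.2 and 40.4 CPM (0.44 ± 0.11). The lower calls numbered 3, 7, 12 and 5 without untreated replicate 1, Dox replicate 1, untreated replicate 2 and Dox replicate 2. Tfrc lost its call without untreated replicate 1 or Dox replicate 2 (adjusted p up to 0.21) and Alas2 without Dox replicate 1 or untreated replicate 2 (up to 0.58). The primitive erythroid markers Hbb-y, Hbb-bh1, Hba-x, Gata1 and Klf1 summed to 2159 and 1319 CPM in the untreated libraries and 2057 and 1949 CPM with Dox, with 1 higher and 1 lower of 5. Their part in these results was not tested.

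Megakaryocyte and platelet genes fell in 7 of 21 tested and rose in 2 (median -0.48). Plek, pleckstrin, a protein kinase C substrate of platelets and leukocytes, went from 221 and 215 to 99.6 and 88.6 CPM, with the replicates close and the groups far apart (-1.20 ± 0.06, adjusted p = 3.6e-14; chromosome 11, 16971206 to 17052381). Tubb1, the platelet beta-tubulin, went from 12.0 and 9.11 to 4.11 and 3.91 CPM (-1.34 ± 0.15). Rab27b (-0.48 ± 0.07) and Nbeal2 (-0.42 ± 0.08), which serve platelet granules, also fell. The ADP receptor P2ry1 rose from 51.1 and 51.1 to 80.3 and 74.8 CPM (0.61 ± 0.07), and Vwf rose as given above (its call was lost without Dox replicate 1 or untreated replicate 2, adjusted p up to 0.38). The markers Pf4, Gp1ba and Itgb3 summed to 318 and 294 CPM in the untreated libraries and 216 and 186 CPM with Dox. Nearly all of this sum was Itgb3, which fell from 308 and 286 to 209 and 179 CPM. Gp1ba did not pass (-0.26 ± 0.14, adjusted p = 0.310), and Pf4 was under 1 CPM in every library.

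Chemokine genes and C-type lectins were called in 1 direction only, lower. Ccr2, a chemokine receptor of monocytes, had the largest fall of all called genes with a mean level above 1 log2 CPM, from 6.77 and 6.78 to 1.51 and 1.41 CPM (-2.19 ± 0.21, adjusted p = 3.09e-08; chromosome 9, 124101950 to 124113557). Of 22 tested chemokine and receptor genes 8 fell and 0 rose. The CC chemokines Ccl9 (52.3 and 43.4 to 19.2 and 20.8 CPM) and Ccl6 (17.7 and 17.1 to 7.57 and 7.76 CPM) fell by 1.253 ± 0.11 and 1.18 ± 0.14. Cxcl12, the stromal ligand of Cxcr4, fell from 430 and 472 to 335 and 371 CPM (-0.36 ± 0.05). Of 15 C-type lectins, pattern and inhibitory receptors of myeloid cells, 5 fell and 0 rose, among them Clec4n (5.70 and 5.00 to 1.87 and 0.578 CPM), Clec5a, Olr1 and Cd69. Cd69 stood at 0.997 and 1.27 CPM in the untreated libraries and at 0.112 and 0.0642 CPM with Dox, few reads in each library.

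Fc and paired immune receptors, which carry activating or inhibitory signals in leukocytes, fell in 7 of 23 with 0 rises. Lilrb4 went from 12.0 and 10.8 to 6.79 and 5.01 CPM (-0.88 ± 0.14) and Sirpa from 43.5 and 39.5 to 31.3 and 32.4 CPM (-0.38 ± 0.08). Emr4, an adhesion receptor of macrophages outside this list, fell by 2.06 ± 0.22, and Ptafr, the receptor for platelet-activating factor, by 1.44 ± 0.21. Both are named because they were among the 15 largest falls. Granule and secreted proteins of myeloid cells fell in 4 of 11: Hp, haptoglobin (8.19 and 6.42 to 2.207 and 1.604 CPM), Fgl2 (19.4 and 16.6 to 6.51 and 5.58 CPM), Srgn and Mpo. Lyz2, a lysozyme, rose instead, from 6.20 and 6.48 to 11.3 and 9.43 CPM (0.73 ± 0.14). Of 33 leukocyte signalling and actin genes 11 fell, and Rac2 rose.

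The lower calls among the chemokines and receptors numbered 5, 5, 6 and 4 without untreated replicate 1, Dox replicate 1, untreated replicate 2 and Dox replicate 2. For the Fc and paired receptors and for leukocyte signalling, the lower calls were fewer in each of these fits than with all libraries. Their number did not change for the C-type lectins and the granule genes. The lectins called were not the same genes throughout, because Clec7a lost its call without Dox replicate 1. Sirpa lost its call without untreated replicate 1 or Dox replicate 1 (adjusted p up to 0.092) and Lyz2 without Dox replicate 1 (0.099). The myeloid markers Csf1r, Itgam, Mpo and Fcer1g summed to 34.0 and 30.2 CPM in the untreated libraries and 20.7 and 18.9 CPM with Dox, with 1 lower of 4 (Mpo). The wider blood markers Ptprc, Itga2b, Spi1, Runx1, Coro1a and Laptm5 summed to 307 and 288 against 272 and 250 CPM, with 1 lower of 6 (Spi1). None of these markers was at 0 in any library, and their part in the falls was not tested.

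Cytokine receptors of blood fell in 6 of 24 and rose in 1. Csf2rb2, the second copy of the beta chain gene in mice, fell by 0.65 ± 0.13 beside Csf2rb, from which it may draw reads. Il17ra fell from 38.5 and 35.9 to 25.1 and 25.3 CPM (-0.55 ± 0.08). Il9r, the receptor for IL9, rose from 2.14 and 1.58 to 5.14 and 6.29 CPM (1.66 ± 0.24, adjusted p = 2.04e-05). Toll-like receptor genes and adaptors fell in 2 of 17 (11.8% called, against 6.76% of all tested genes). Cd14, their co-receptor for lipopolysaccharide, went from 4.202 and 3.15 to 1.45 and 1.48 CPM (-1.28 ± 0.25). The lower calls numbered 4, 4, 5 and 3 for the cytokine receptors, and 3, 1, 1 and 1 for the Toll-like genes, without untreated replicate 1, Dox replicate 1, untreated replicate 2 and Dox replicate 2.

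Interferon effectors, the genes that interferon switches on against viruses, fell in 8 of 35 tested, with 0 rises and a median of -0.46. Of the 35, 0 were called at 6 h, when 1.54% of all tested genes were, and 33 were called lower at 24 h, when 6.52% were. The 0 at 6 h is edgeR's count, and 3 of the 35 differed there at an unadjusted p under 0.05 in its test. DESeq2 also called 0, but it gave no adjusted p for 10 of the 35. Ifit1 went from 6.05 and 4.54 to 1.40 and 1.16 CPM (-1.95 ± 0.22, adjusted p = 3.51e-07; chromosome 19, 34640871 to 34650009). Usp18, which dampens interferon signalling, went from 3.49 and 3.12 to 1.28 and 1.22 CPM (-1.36 ± 0.28), and Ifit3 from 3.56 and 3.48 to 1.76 and 1.80 CPM (-0.98 ± 0.21). Rsad2, viperin, went from 17.0 and 17.1 to 12.0 and 8.92 CPM (-0.66 ± 0.13), and Ifit2 from 23.7 and 25.4 to 18.3 and 16.04 CPM (-0.51 ± 0.11). Both Dox libraries lay below both untreated ones in these 5 genes, which for Ifit1 and Usp18 was part of the rule that chose them. The calls of Usp18 (adjusted p = 0.052) and Ifit3 (0.078) were lost without Dox replicate 1 and that of Ifit2 (0.073) without untreated replicate 2. The count for the list was 7, 3, 4 and 7 without untreated replicate 1, Dox replicate 1, untreated replicate 2 and Dox replicate 2. The genes for interferon receptors, STATs and IRFs held 2 small rises among 21 (9.52% called, against 6.76% of all tested genes). These were Stat3 (0.17 ± 0.05) and Stat5b (0.29 ± 0.07). Stat3 lost its call in each of these 4 fits (adjusted p up to 0.245) and with the length correction (0.19), and Stat5b without Dox replicate 1 or untreated replicate 2 (up to 0.21). Of 17 antigen presentation genes edgeR called 0, against 6.76% of all tested genes, a share at which a list of 17 would hold few calls. In its test 0 of the 17 differed at an unadjusted p under 0.05. DESeq2 also called 0, but it gave no adjusted p for 7 of the 17.

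Promoters of Ifit1 and Ifit3 are shown for letters that both share. The letters GAAANNGAA are the core of the element that interferon-activated factors bind, and were searched on both strands of RefSeq windows on GRCm38.p6 that run from 250 bases before to 50 bases after each gene's start. They occurred in 17 of the 26 interferon effectors with a window (65.4%), in 8.56% of all 32851 windows, and the other 9 members of the list have no window here. Matches on either strand are in capitals, and overlapping matches run together; each window is written 5′ to 3′ on the strand of its gene. Ifit1 (chr19:34640639-34640938, plus strand) and Ifit3 (chr19:34583279-34583578, plus strand) each held 3 matches, all on the opposite strand. Ifit2 has 2 windows, and both held 0 matches.
Ifit1: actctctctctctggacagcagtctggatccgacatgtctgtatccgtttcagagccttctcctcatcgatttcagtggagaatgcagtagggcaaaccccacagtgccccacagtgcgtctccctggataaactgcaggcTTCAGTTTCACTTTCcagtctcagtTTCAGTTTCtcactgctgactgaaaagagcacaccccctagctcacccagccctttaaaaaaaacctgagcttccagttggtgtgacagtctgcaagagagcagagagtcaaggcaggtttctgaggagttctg
Ifit3: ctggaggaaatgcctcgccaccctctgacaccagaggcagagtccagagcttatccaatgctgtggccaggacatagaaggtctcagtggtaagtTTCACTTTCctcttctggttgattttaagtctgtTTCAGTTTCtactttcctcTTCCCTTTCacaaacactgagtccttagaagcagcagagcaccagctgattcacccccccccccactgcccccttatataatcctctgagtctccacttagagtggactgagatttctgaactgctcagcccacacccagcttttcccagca

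Hypoxia and glycolysis genes rose in 6 of 29 tested at 12 h and fell in 0 (20.7% called, against 6.76% of all tested genes), and 26 of the 29 lay above 0. At 6 h 1 of the list was called higher and 0 lower, when 0.821% and 0.717% of all tested genes were. At 24 h 2 were called higher and 2 lower, when 4.50% and 6.52% of all tested genes were. Pdk1, a pyruvate dehydrogenase kinase, went from 70.9 and 58.2 to 100.4 and 85.3 CPM (0.55 ± 0.08, adjusted p = 4.73e-05). Vegfa rose as given above, and Pfkl, a phosphofructokinase, went from 49.3 and 37.7 to 62.7 and 57.9 CPM (0.50 ± 0.10). Kdm3a (0.34 ± 0.07), P4ha2 (0.30 ± 0.07) and Egln1 (0.29 ± 0.07), oxygen-dependent hydroxylases or demethylases, rose less. Bnip3 read 31.1 and 11.4 CPM without Dox against 38.5 and 25.2 CPM with it and did not pass (adjusted p = 0.0653, or 0.0417 with the length correction), and the lactate exporter Slc16a3, outside the list, read 92.0 and 49.4 against 114 and 83.3 CPM (adjusted p = 0.0767).

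In this list replicate 1 stood above replicate 2 for 25 of 29 genes in the untreated group and for 24 of 29 in the Dox group. The number called higher was 10, 2, 4 and 9 without untreated replicate 1, Dox replicate 1, untreated replicate 2 and Dox replicate 2. Pfkl (adjusted p up to 0.17), P4ha2 (up to 0.13) and Egln1 (up to 0.24) lost their calls without Dox replicate 1 or untreated replicate 2, and Kdm3a without Dox replicate 1 (0.12), while Pdk1 and Vegfa kept theirs in each of the 4 fits. The part of this replicate difference in the rises was not tested.

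Besides Sox7, several of the largest rises among called genes with a mean level above 1 log2 CPM were in genes nearly silent without Dox, some of them neural or endocrine. Pdyn, which encodes the opioid precursor prodynorphin, went from 0.641 and 0.394 to 4.55 and 3.85 CPM (3.15 ± 0.36, adjusted p = 5.71e-07). Rasd2, a small GTPase of the striatum, went from 0.570 and 0.727 to 5.84 and 6.03 CPM (3.12 ± 0.28, adjusted p = 9.18e-09). Insm1, a zinc-finger factor of neuroendocrine cells, rose by 1.74 ± 0.36, and Aldh1a3, a retinoic acid-forming enzyme, from 0.712 and 0.666 to 2.68 and 2.63 CPM (1.96 ± 0.38). Clic6, a chloride channel family member, was well above background without Dox, at 16.5 CPM in both libraries, and reached 66.2 and 58.0 CPM (1.92 ± 0.10, adjusted p = 1.27e-14). Nov, a matricellular CCN protein, rose by 1.83 ± 0.22, and Aqp8, a water channel, by 1.41 ± 0.19. A lack of overlap between the groups was part of the rule by which these 7 genes were chosen. The same rule also picked Hbb-y, Jag2 and Plcb1, which were expressed without Dox, at means of 139, 9.80 and 10.7 CPM. The wider neural list had 3 rises and 1 fall of 19 and a median of -0.18. The fall, Nefl (-0.52 ± 0.14), a neurofilament subunit, lost its call without Dox replicate 1 or untreated replicate 2 (adjusted p up to 0.665).

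SOX proteins recognise short sites with the cores ACAAT and ACAAAG. At least 1 of these occurred, on either strand, in 42.9% of all 32851 RefSeq windows (ACAAT in 31.0%, ACAAAG in 18.7%), in 2 of the 9 of the 15 largest rises that had a window, and in 4 of the 10 of the 15 largest falls that had one. These shares are near the level of all windows or below it, and such short letters occur often. Those 2 rises held both cores. They were Pdyn (chr2:129699889-129700188, minus strand) and Hbb-y (chr7:103853158-103853457, minus strand), and are printed 5′ to 3′ on the strand of the gene with the matches of either strand in capitals. A second window of Pdyn, at another start, held neither. A match describes the letters only.
Pdyn: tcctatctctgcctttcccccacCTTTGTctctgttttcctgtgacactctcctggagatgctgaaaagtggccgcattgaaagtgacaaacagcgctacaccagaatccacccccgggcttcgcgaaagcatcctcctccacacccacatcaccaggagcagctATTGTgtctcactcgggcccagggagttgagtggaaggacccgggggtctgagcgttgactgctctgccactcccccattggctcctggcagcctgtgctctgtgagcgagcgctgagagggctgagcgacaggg
Hbb-y: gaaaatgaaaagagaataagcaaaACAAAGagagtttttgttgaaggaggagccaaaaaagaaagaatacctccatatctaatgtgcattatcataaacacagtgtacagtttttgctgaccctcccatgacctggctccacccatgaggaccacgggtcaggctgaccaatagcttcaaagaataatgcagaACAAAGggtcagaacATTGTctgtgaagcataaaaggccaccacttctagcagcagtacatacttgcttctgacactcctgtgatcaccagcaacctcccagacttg

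The response at 12 h was compared with those at the other hours by the differences between the fitted effects. Of the 500 genes higher at 12 h, 94 were also called higher at 6 h (18.8% of these and 74.6% of the 126 higher at 6 h, where 0.821% of genes were called higher). At 24 h 291 were called higher (58.2%, and 42.2% of the 690 higher there, 4.50% of genes). Of the 538 lower at 12 h, 67 were lower at 6 h (12.5%, and 60.9% of 110, 0.717% of genes), and 268 at 24 h (49.8%, and 26.8% of 1000, 6.52% of genes). Calls in opposite directions were limited to 2 genes. Rgs5, a regulator of G-protein signalling in mural cells, was -0.42 at 6 h, 0.48 at 12 h and 0.86 at 24 h, and Alas2 was 0.44 at 12 h (a call lost without Dox replicate 1 or untreated replicate 2, adjusted p up to 0.578) and -0.69 at 24 h.

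The Dox effect differed from that at 6 h for 64 genes (0.417% of those tested) and from that at 24 h for 185 genes (1.21%). Genes called at 12 h alone numbered 461, but for only 21 of these did the difference from 6 h pass and for 20 that from 24 h, so most were not shown to differ between hours. Both differences passed for 12 genes. Hbb-y, Rac2, Pfkl, P4ha2 and Slc16a3 had a higher effect at 12 h than at 6 h and at 24 h. Plek, Spp1, Ccl9, Rsad2, Gbp5 and Rnf213 had a lower effect at 12 h than at 6 h and a still lower one at 24 h. Gcsh, of the glycine cleavage system, was lower at 12 h than at either. Only for Hbb-y and Plek did both differences pass without each of the libraries compared. The 64 genes became 174 without Dox replicate 1 of 6 h, 14 without untreated replicate 2 of 6 h and 13 without Dox replicate 2 of 6 h. They became 124, 14 and 22 without untreated replicate 1, Dox replicate 1 and untreated replicate 2 of 12 h. The 185 became 65 and 73 without Dox replicate 1 and untreated replicate 2 of 12 h, and 92, 90 and 114 without untreated replicates 1 and 2 and Dox replicate 2 of 24 h.

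The levels at each hour differed in the untreated libraries as well as with Dox. Hbb-y read 97.9 and 87.6 CPM without Dox at 6 h, 152 and 126 at 12 h and 335 and 284 at 24 h. With Dox it read 138 and 147 CPM at 6 h, 390 and 378 at 12 h and 396 and 343 at 24 h, so both untreated libraries of 24 h were still below both Dox libraries of 12 h. The log2 fold change was 0.61, 1.47 and 0.26. Spp1, osteopontin, a secreted matrix protein, read 18.8 and 17.6 CPM without Dox at 6 h, 44.9 and 44.4 at 12 h and 111 and 120 at 24 h. With Dox it read 15.5 and 15.8, 17.6 and 16.6, and 32.0 and 33.8 CPM, so that the Dox libraries of 12 h were close to the untreated libraries of 6 h. Plek likewise read 125 and 123, 221 and 215, and 378 and 397 CPM without Dox against 104 and 90.9, 99.6 and 88.6, and 123 and 113 CPM with it. Changes between hours within a treatment were not tested here.

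Rac2 was the clearest case of an effect seen at 12 h and not at the other hours. It read 1.76 and 2.89 CPM without Dox at 6 h against 1.46 and 1.80 CPM with it, and 7.65 and 6.49 against 5.19 and 5.24 CPM at 24 h. The effect at 12 h exceeded that at 6 h by 1.71 (adjusted p = 0.0151) and fell by 1.75 to 24 h (adjusted p = 0.000503). Among the arterial genes, Jag2 gained 0.84 between 6 h and 12 h (adjusted p = 0.0153) and Gja5 a further 0.46 from 12 h to 24 h (adjusted p = 0.042). The lymphatic gene Lyve1 moved from -0.89 at 6 h to -1.64 at 12 h (difference -0.74, adjusted p = 0.0122). Gfi1b went the other way, from a called -1.37 at 6 h to -0.09 at 12 h (difference 1.28, adjusted p = 0.00262), and to -0.65 at 24 h. Of these differences, those of Rac2 and Jag2 from 6 h were lost without untreated replicate 2 or Dox replicate 2 of 6 h, Dox replicate 1 of 12 h or untreated replicate 2 of 12 h (adjusted p up to 0.169 and 0.172). That of Lyve1 was lost without either untreated library or Dox replicate 2 of 6 h, or Dox replicate 1 of 12 h (up to 0.118), and that of Gfi1b without Dox replicate 1 of 12 h (0.099). That of Gja5 was lost in 5 of the 8 fits, without untreated replicate 1, Dox replicate 1 or Dox replicate 2 of 24 h, Dox replicate 1 of 12 h or untreated replicate 2 of 12 h (up to 0.543).

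**Figure D5:**
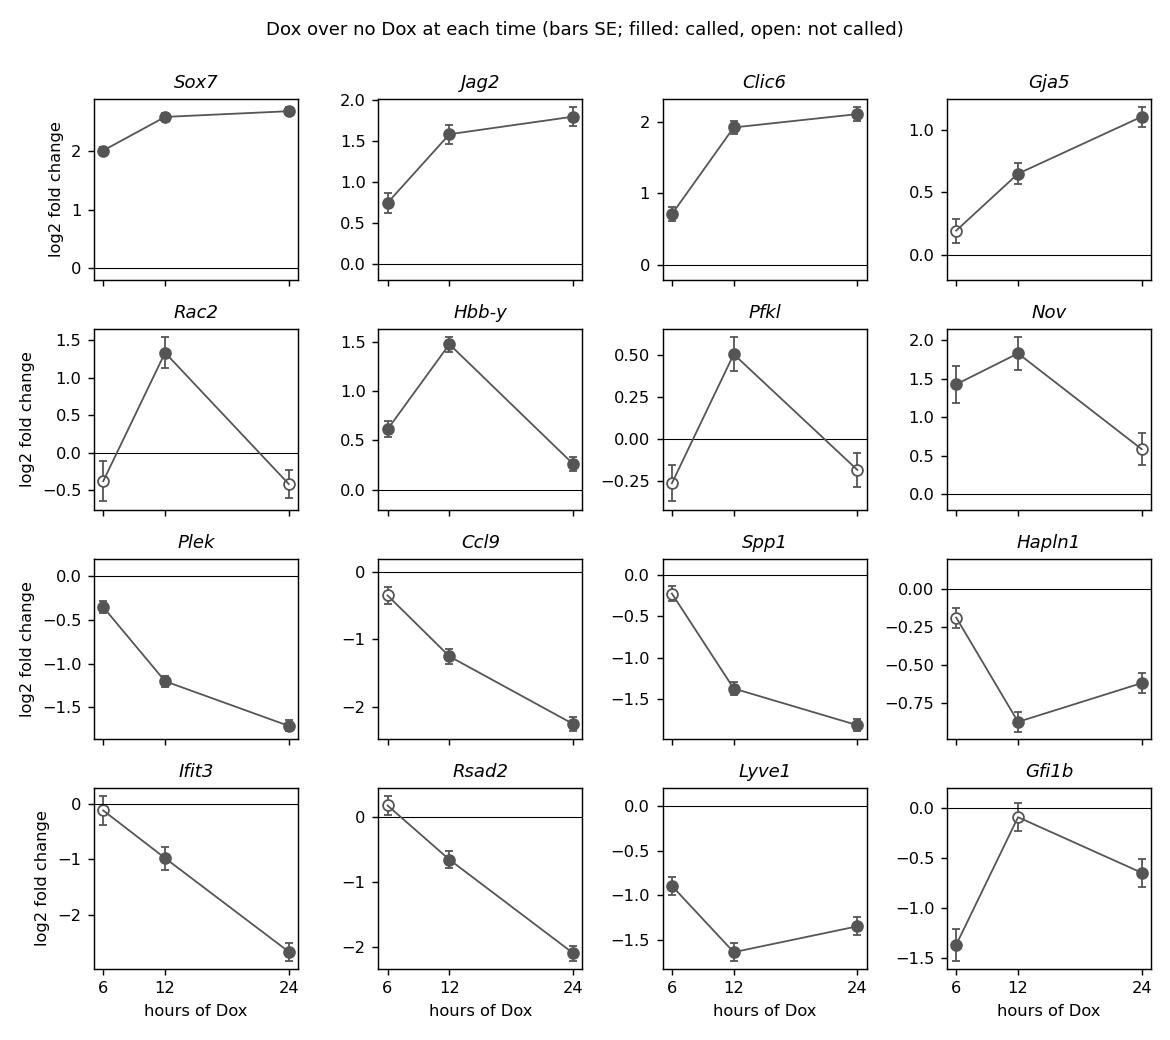
Log2 fold change with Dox (y axis) at 6, 12 and 24 h (x axis) for 16 genes, with bars of 1 SE; filled points passed the test at that hour. Rac2 and Hbb-y peak at 12 h, Jag2, Clic6 and Gja5 stay up to 24 h, and Spp1, Plek, Ccl9 and Rsad2 lie lower at each later hour.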

How the data were processed

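RNA was measured in 12 libraries, 2 for each combination of 6, 12 or 24 h with or without Dox. The deposited table gives whole read counts and RPKM values per gene, both made by the authors on GRCm38, with coordinates as printed above. The submitters' processing notes name edgeR 3.8.5, R 3.1.0, SAMtools 0.1.19, Bowtie2 2.21 and bcl2fastq 2.16.0.10. Per the labels' protocols the library kit was strand-specific and reads were single, of 75 bases. Which program counted the reads, with which strand setting and gene annotation, is not given in the sources used here, so near-identical gene copies, overlapping genes and antisense genes may share reads.

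The counts were fitted with edgeR 4.0.16 in R 4.3.3 (quasi-likelihood test, 1 mean per group over all 12 libraries, TMM scaling, filterByExpr, 6 residual degrees of freedom). A gene was called at a Benjamini-Hochberg adjusted p under 0.05, and the SE is the log2 fold change divided by the root of F. CPM values use TMM-scaled library sizes. Differences between hours are contrasts in the same fit. On simulated data for the 12 h effect over 15071 genes, the test found 72.7%, 89.2% and 93.8% of 1.5-, 2- and 4-fold changes, and 5.11% of its calls were false. The simulated counts held no trend with gene length and no changes under 1.5-fold. The share of false calls therefore does not carry over to the real calls, most of which were under 1.5-fold. Alternatives were upper-quartile or RLE scaling, no filter or 1 CPM in 4 libraries, a replicate block, DESeq2 1.42.0, limma 3.58.1 on log2(RPKM + 0.5, 0.1 or 1), the 12 h libraries alone, leaving out each library, and, chosen after seeing the data, a gene length correction. Gene length is the count divided by RPKM and depth.

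Replicates of a group differed by more than counting noise (chi-square per degree of freedom 2.63 to 4.61). The labels do not say that a replicate number marks a shared culture, and the numbers were not used as pairs.

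The members and the 41 gene lists were chosen with earlier results of these data known. All 923 listed symbols were matched, 916 by name and 7 by older or newer names, and 53 are in more than 1 list. Named genes are the 3 SOXF genes, Runx1, Cdh5, Itga2b, Gfi1 and Gfi1b. To these come the 15 largest rises and falls of called genes with a mean of at least 1 log2 CPM and no overlap (named, not pseudogenes), the 10 highest expressed called genes in each direction, up to 6 called genes per list by adjusted p with those against the list's majority, and the 6 largest differences in each direction for each pair of hours. Other genes named were chosen after their values were seen. Promoter windows come from RefSeq on GRCm38.p6.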

Additional observations from a re-analysis of the deposited data

Results flagged for a closer look

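Results in this section are effects of Dox that differed between hours in edgeR's test of the difference itself, at a Benjamini-Hochberg adjusted p under 0.05. Each hour had its own 2 untreated and 2 Dox libraries. The effect at 12 h differed from that at 6 h for 64 genes, and the effect at 24 h from that at 12 h for 185 genes.

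Of these, 30 named genes differed between 6 h and 12 h. The difference passed without each of the 8 libraries compared for 7 of them and was lost in at least 1 such fit for 23. The 7 were Plek (-0.85), Spp1 (-1.15), Sepp1 (-0.78), Hapln1 (-0.69), Sox7 (0.57), Hbb-y (0.86) and Clic6 (1.21). Lower effects at 12 h that were lost in some fits were Clec4n -2.08, Emr4 -1.58, Lilrb4 -0.92, Ccl9 -0.90, Rsad2 -0.83, Gbp5 -0.76, Lyve1 -0.74, Gcsh -0.43 and Rnf213 -0.40. Emr4 was lost in 7 of 8 fits, with an adjusted p of up to 0.713. Higher effects that were lost in some fits were Rac2 1.71, Ak4 1.63, Aqp8 1.45, Slc16a3 1.37, Gfi1b 1.28, Rgs5 0.90, Cited4 0.84, Jag2 0.84, Plcb1 0.80, Pfkl 0.77, Acsf2 0.64, Pdk1 0.54, P4ha2 0.46 and Dpysl3 0.42. Ak4 was lost in 3 of 8 fits (adjusted p up to 0.127), Pfkl, P4ha2 and Slc16a3 in 4 (up to 0.135, 0.269 and 0.196), and Pdk1 in 5 (up to 0.298). Of the 29 tested hypoxia and glycolysis genes 3 had a called difference.

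Between 12 h and 24 h 35 named genes differed, 13 of them without each of the 8 libraries compared and 22 with a loss in at least 1 such fit. The 13 were Isg15 (-1.85), Hbb-bs (-1.81), Rac2 (-1.75), Ifit3 (-1.69), Hba-x (-1.46), Rsad2 (-1.43), Hba-a1 (-1.33), Hbb-y (-1.21), Alas2 (-1.12), Ccl9 (-1.003), Rnf213 (-0.68), Plek (-0.51) and Frmpd1 (1.39). Lower effects at 24 h that were lost in some fits were Il10ra -2.10, Cytip -2.07, Igsf6 -2.05, Fcer1g -1.82, Nov -1.25, Slc16a3 -1.24, Hbb-bh1 -0.94, Sema4d -0.92, Ifit2 -0.84, Gbp5 -0.76, Pfkl -0.69, P2ry1 -0.49, Spp1 -0.44 and P4ha2 -0.38. Nov was lost in 6 of 8 fits (adjusted p up to 0.385), and Igsf6 and Fcer1g only without Dox replicate 1 of 12 h (0.149 and 0.106). Higher effects that were lost in some fits were Vgf 0.79, Nkx1-2 0.67, Syt13 0.64, Zik1 0.63, Dph5 0.58, Gja5 0.46, Gja4 0.35 and Gcsh 0.35. Gja4 and Gja5 were each lost in 5 of 8 fits (adjusted p up to 0.336 and 0.543).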

How the results depend on the processing

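The 1038 genes called at 12 h stayed between 764 and 1233 with RLE or upper-quartile scaling, with no filter or a stricter one, with DESeq2, with the gene length correction and with the 12 h libraries alone, although DESeq2 called only 350 lower genes. On log2(RPKM + 0.5, 0.1 or 1) limma called 358, 354 and 365 genes: 194, 186 and 196 higher, and 164, 168 and 169 lower. Leaving out 1 library of 12 h gave 423 to 754 genes, 228 to 389 higher and 195 to 365 lower. For the difference from 6 h, limma called 4, 4 and 1 genes, no filter gave 255, and leaving out 1 library gave 13 to 174. For the difference between 24 h and 12 h limma called 66, 6 and 108, no filter gave 356, and leaving out 1 library gave 65 to 274. The cause of these shifts was not tested, except that no filter adds genes of few reads and leaving out a library removes reads and a degree of freedom. DESeq2 called 1 globin and 5 chemokine genes lower. With the replicate number as a block 1071 genes were called. Deviations of same-numbered replicates correlated between -0.168 and 0.169 from group to group, which does not settle what the number marks. In every alternative 225 genes kept their call (132 higher, 93 lower). Of 208 called genes that were named or listed, 74 kept their call in every alternative, 134 lost it in at least 1, and 0 changed direction.

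With 13846438 and 15429846 counts in the shallower library of each group, genes near 1 CPM rest on few reads, and only 2.50% of the genes in the lowest of 4 equal groups by level were called. The limma counts come with values that carry no depth.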

Other observations

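Genes outside the blood and endothelial groups also moved at 12 h; those in this paragraph belong to no list and were chosen after their values were seen. Glul, glutamine synthetase, rose from 172 and 195 to 358 and 350.1 CPM (0.94 ± 0.06, adjusted p = 8.14e-13 in edgeR's test). Hapln1, which links hyaluronan to proteoglycans, fell from 845 and 950 to 487 and 492 CPM (-0.88 ± 0.07), and Sepp1, the selenium carrier, from 356 and 355 to 219 and 236 CPM (-0.65 ± 0.08). The cytoskeletal regulator Dpysl3 rose from 154 and 179 to 270 and 284 CPM (0.72 ± 0.06). The SOXD factor Sox13 rose from 44.1 and 46.8 to 76.3 and 72.6 CPM (0.71 ± 0.07), and Pdgfb, which recruits mural cells to vessels, by 0.42 ± 0.06. Procr, the protein C receptor, fell from 21.2 and 23.6 to 14.9 and 14.7 CPM (-0.61 ± 0.10).

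Other lists gave fewer calls. BMP and TGF-beta genes fell in 5 of 30 with 0 rises (16.7% called, against 6.76% of all tested genes). The list as a whole did not move down, as 18 of the 30 lay above 0 and 12 below, with a median of 0.04. The falls held the BMP binders Bmper (-0.71 ± 0.09) and Nog (-0.48). The falls numbered 5, 2, 2 and 5 without untreated replicate 1, Dox replicate 1, untreated replicate 2 and Dox replicate 2, and Nog lost its call without Dox replicate 1 or untreated replicate 2 (adjusted p up to 0.19). Abca1, the cholesterol exporter, rose from 17.5 and 17.9 to 35.4 and 34.7 CPM (0.98 ± 0.08), and 3 of 33 cholesterol and lipid genes were called (9.09%, against 6.76% of all tested genes). Of 30 G1/S genes 2 were called, both lower (6.67%, near the share of all genes), while 27 of the 30 lay below 0 (median -0.10, against -0.01 over all genes). Of 30 G2/M genes 1 was called, lower (3.33%), and 17 lay below 0 (median -0.01). Of 21 smooth muscle and mesenchyme genes 2 fell and 1 rose (14.3% called), with 10 above and 11 below 0 and a median of -0.01. Acta2 (-0.20) and Tagln (-0.32) fell, and both lost their calls without Dox replicate 1 or untreated replicate 2 (adjusted p up to 0.452 and 0.497); Acta2 also lost it with the gene length correction (0.0913). Smtn rose (0.28), with its call lost without untreated replicate 1, Dox replicate 1 or untreated replicate 2 (up to 0.0623). The 3 smooth muscle markers summed to 5508 and 5942 CPM in the untreated libraries and 4543 and 5304 CPM with Dox. Of 1260 tested pseudogenes 33 were lower and 5 higher (3.02% called, against 6.76% of all tested genes). Their median length was 808 bases and their median log2 fold change -0.09.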
